A study of Gallus gallus with 88 samples.

Results

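The genes described here encode the pore-forming and auxiliary subunits of potassium channels (symbols starting KCN), voltage-gated sodium channels (SCN followed by a digit) and voltage-gated calcium channels (CACN). A probe set was taken where the platform annotation gave it exactly 1 such symbol, and among several probe sets of 1 gene the one with the highest mean stood for it. This gave 98 probe sets for 92 genes, out of 11528 genes with a name. By symbol they fall into 31 voltage-gated potassium channel pore subunits, 2 calcium- or sodium-activated potassium channel pores, 11 inward rectifiers, 12 2-pore-domain potassium channels, 12 potassium channel auxiliary subunits and regulators, 4 sodium channel pores, 3 sodium channel beta subunits, 7 calcium channel pores and 10 calcium channel alpha2delta, beta and gamma subunits. Inward rectifiers and 2-pore-domain channels are potassium channels without a voltage sensor.

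Messenger RNA was measured in the breast muscle (M. pectoralis major) of broiler chickens on 88 1-colour Affymetrix arrays, 1 per animal. Embryos of 38.8 °C and of 36.8 °C and 37.8 °C controls were sampled on embryonic day 10, with the changed temperature on days 7 to 10, and on embryonic day 13, with it on days 10 to 13 (8 arrays per temperature and day). Birds were sampled on post-hatch day 35 after 38.8 °C or 36.8 °C on days 7 to 10, after either temperature on days 10 to 13, or as 37.8 °C controls (8 arrays per group). All eggs were otherwise kept at 37.8 °C. The samples are whole tissue, and fewer cells of a type and less RNA per cell cannot be told apart in them.

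A muscle fibre fires when voltage-gated sodium channels open. The depolarisation moves the voltage sensor of the L-type calcium channel in the transverse tubules, the dihydropyridine receptor, which opens the calcium release channel of the sarcoplasmic reticulum. Potassium channels set the resting potential and end the action potential. Many other members are known mainly from neurons, heart or smooth muscle, and T-type calcium channels and some potassium channels are known to be active in human myoblasts before they fuse.

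Values are log2 signals, so a difference of 1 is a doubling, and differences are taken within a probe set. The median signal of an array was 7.56 to 8.13 in the embryos and 6.32 to 6.76 at day 35, so levels were compared only within each of these sets. Among the 23 background control probe sets, the median signal was 5.55 on embryonic day 10, 5.56 on day 13 and 4.99 at day 35. These 3 values are medians over arrays. Of the 92 channel genes, 9, 13 and 31 averaged below the mean over arrays of the same background signal at these ages. The highest background probe set read 9.73, 9.70 and 9.43 (median over arrays), and 1, 6 and 3 of the 92 averaged above its mean over arrays. Median correlations of an array with the others of its age were 0.901 to 0.963. The samples are listed in 2 sets per age, set 1 holding the 38.8 °C arrays and 4 controls and set 2 the 36.8 °C arrays and the other 4 controls. Whether the sets are a technical batch is not stated. Among day 10 controls alone, 6 of 92 channel genes (6.52%) were higher in set 1 and none lower, namely KCNH7, KCNK5, CACNA2D1, KCNA4, KCNMA1 and CACNA1D. Of all probe sets, 9.18% differed there and 8.52% were higher. At day 13 and at day 35 no channel gene passed (limma, 0.0% of all probe sets in both). An unadjusted p under 0.05 was found for 12 and 6 of them (20.2% and 6.01% of all probe sets).

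Between embryonic day 10 and day 13, CACNA1S and CACNA2D1 of the muscle dihydropyridine receptor rose in control embryos. So did the activated potassium channels and the G-protein-gated inward rectifiers. Other subunit genes of that receptor, CACNB1 and CACNG1, were not among the measured genes. The Kv1 subunits KCNA2, KCNA3, KCNA4 and KCNA6 fell, as did KCNC2 (Kv3.2), KCND2 (Kv4) and KCNQ5 (Kv7.5). The BK beta subunits KCNMB2 and KCNMB4 and the T-type calcium channels CACNA1G and CACNA1I fell too. Of these falls, those of KCNA4, KCNA6 and KCNQ5 passed in controls only. The fall of KCNA3 passed in controls and at the highest incubation temperature, and the other falls named here passed at every incubation temperature. In all, 19 of 92 genes rose and 20 fell on day 13 (42.4%), where 26.8% of all probe sets and 33.7% of named genes, counted once each, passed the same test (limma, adjusted over 20706 probe sets, threshold 0.05). Of all probe sets, 9.65% rose and 17.2% fell. The median size of the difference was 0.34 among the channel genes and 0.20 among all named genes, and the median difference was -0.02 and -0.04. In 15 of the 92 genes the groups did not overlap, as in 7.79% of all probe sets.

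**Figure D1:**
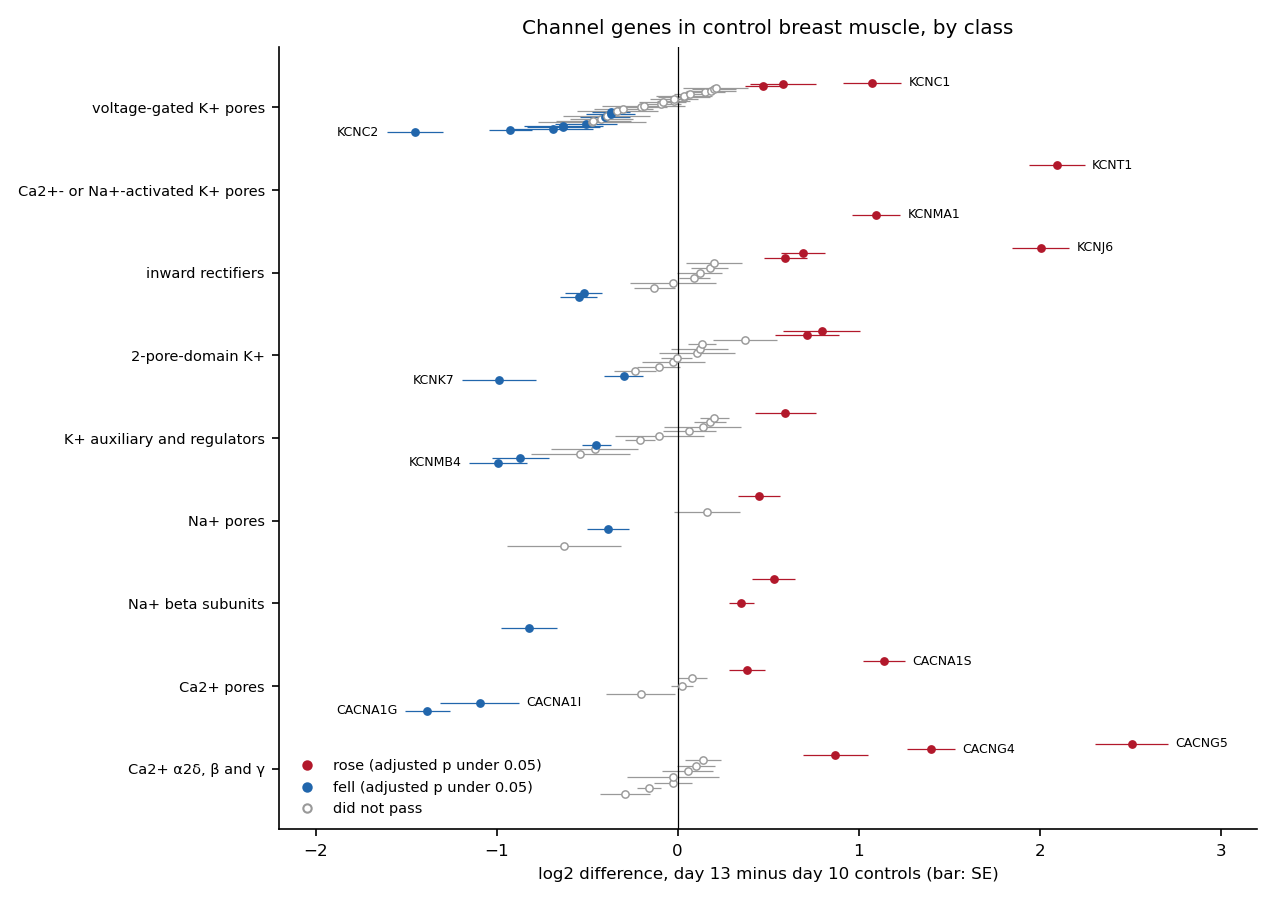
Difference in log2 signal, day 13 minus day 10 control embryos (n = 8 each), for each of the 92 channel genes (x axis), grouped by channel class (y axis). Points are limma estimates with SE bars, and filled points passed an adjusted p of 0.05. Both activated potassium channel pores rose, and 9 of 31 voltage-gated potassium pores fell. Of all probe sets, 9.65% rose and 17.2% fell.

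Among the calcium channel pores, CACNA1S, the voltage sensor and pore of the muscle dihydropyridine receptor, had 10.19, 10.50 and 10.65 (lowest, median and highest array) in day 13 controls, against 8.91, 9.27 and 9.67 in day 10 controls. Every day 13 array lay above every day 10 array. The difference was 1.14 ± 0.12 log2 (SE, limma adjusted p = 1.49e-10). CACNA2D1, which encodes the alpha2delta-1 subunit of that receptor, had 10.09, 10.32 and 10.65 in day 13 controls, against 8.45, 9.57 and 10.08 in day 10 controls. The groups met but did not overlap, and the difference was 0.87 ± 0.18 (limma adjusted p = 0.00019). Within set 1 it was 0.49 ± 0.13 (limma adjusted p = 0.0136) and within set 2 it was 1.26 ± 0.27. With 1 set term for each day it was 0.49 ± 0.22 and did not pass (limma adjusted p = 0.151). That fit takes set 1 as the reference, so it repeats the set 1 difference with a spread taken from all embryo arrays. The set 2 controls do not enter its estimate. The day 10 controls of set 1 averaged 9.96, against 9.03 in set 2.

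T-type channels, which open at small depolarisations, went in both directions. CACNA1G had 7.35, 7.80 and 8.17 in day 13 controls, against 8.86, 9.12 and 9.62 in day 10 controls, without overlap (-1.38 ± 0.12, limma adjusted p = 4.98e-12). CACNA1I, in the same family, fell by 1.09, with its day 13 median of 5.63 near the background median. The third member, CACNA1H, rose by 0.38 ± 0.10 (limma adjusted p = 0.00281). The neuronal pores CACNA1B and CACNA1E, of N-type and R-type channels, and the L-type pore CACNA1D did not pass, at 0.03, 0.08 and -0.20.

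Among the other calcium channel subunits, the steepest rise was in CACNG5, a gamma subunit known in mammals as a partner of AMPA-type glutamate receptors. It had 8.07, 9.68 and 10.09 in day 13 controls, against 6.69, 6.99 and 7.54 in day 10 controls. The lowest day 13 array, embryo 91, stood well below the others and still above every day 10 array. The difference was 2.51 ± 0.20, or 5.69-fold (limma adjusted p = 2.02e-13). CACNG4, of the same family, read 10.53 to 10.83 in day 13 controls, against 8.95 to 9.57 in day 10 controls, and rose by 1.40 ± 0.13. The 7 other genes of this class did not pass, among them the beta subunits CACNB2 (-0.29) and CACNB4 (0.05).

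Of the 7 sodium channel genes, 3 rose and 2 fell, where 9.65% of all probe sets rose and 17.2% fell. SCN4A, the pore of the skeletal muscle sodium channel, had 6.12, 6.69 and 6.83 in day 13 controls, against 5.69, 6.24 and 6.45 in day 10 controls. The groups overlapped, and the difference was 0.45 ± 0.12 (limma adjusted p = 0.00251). SCN8A, a channel of neurons, fell by 0.38, while SCN1A and SCN9A, also known from neurons, did not pass at 0.16 and -0.63. Over all arrays of days 10 and 13, SCN1A averaged 4.66 and 4.80, below the background median, so it is not measured above background. SCN9A averaged 6.19 and 5.52, so its day 13 signal lay near that median. All 3 measured beta subunits, which modify gating and adhesion, passed: SCN4B rose by 0.53 ± 0.12 and SCN2B by 0.35 ± 0.07, and SCN3B fell by 0.82 ± 0.15, with 5.91 to 6.70 in day 13 controls, against 6.91 to 7.35 in day 10 controls. SCN4B and SCN2B are next to each other in the GRCg7b gene table.

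Both activated potassium channel pores rose. KCNT1, a channel opened by intracellular sodium, had 8.68, 9.06 and 9.54 in day 13 controls, against 6.41, 6.94 and 7.86 in day 10 controls. The groups did not overlap (2.10 ± 0.15, 4.28-fold, limma adjusted p = 1.42e-14, the smallest among the channel genes here). KCNMA1, the pore of the large-conductance calcium-activated BK channel, read 10.50 to 10.99 in day 13 controls, against 8.83 to 10.07 in day 10 controls, and rose by 1.096 ± 0.134. The second KCNMA1 probe set rose as well (limma adjusted p = 1.74e-05). The BK beta subunits, which tune the channel's calcium sensitivity, went the other way: KCNMB4 fell by 0.99 ± 0.16 and KCNMB2 by 0.87 ± 0.16, while KCNMB1 did not pass (-0.10).

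Of 11 inward rectifiers, 3 rose and 2 fell, where 9.65% of all probe sets rose and 17.2% fell. KCNJ6, a pore of the G-protein-gated channels that lower excitability when a receptor is activated, had 7.36, 7.60 and 8.02 in day 13 controls, against 5.33, 5.56 and 6.18 in day 10 controls. The groups were far apart (2.01 ± 0.16, limma adjusted p = 9.98e-14). The day 10 values lay at the background median, so the size of the change is not measured above background. Its partners KCNJ5 and KCNJ3 rose by 0.69 ± 0.12 and 0.60 ± 0.12. KCNJ8, a pore of ATP-sensitive channels, fell by 0.52, while ABCC8 and ABCC9, which encode the sulfonylurea receptors that regulate such channels, rose by 1.63 and 0.42. KCNJ12, a pore of the classical strong inward rectifier of muscle, fell by 0.55 ± 0.10, and KCNJ2, its close relative, did not pass (0.09).

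**Figure D2:**
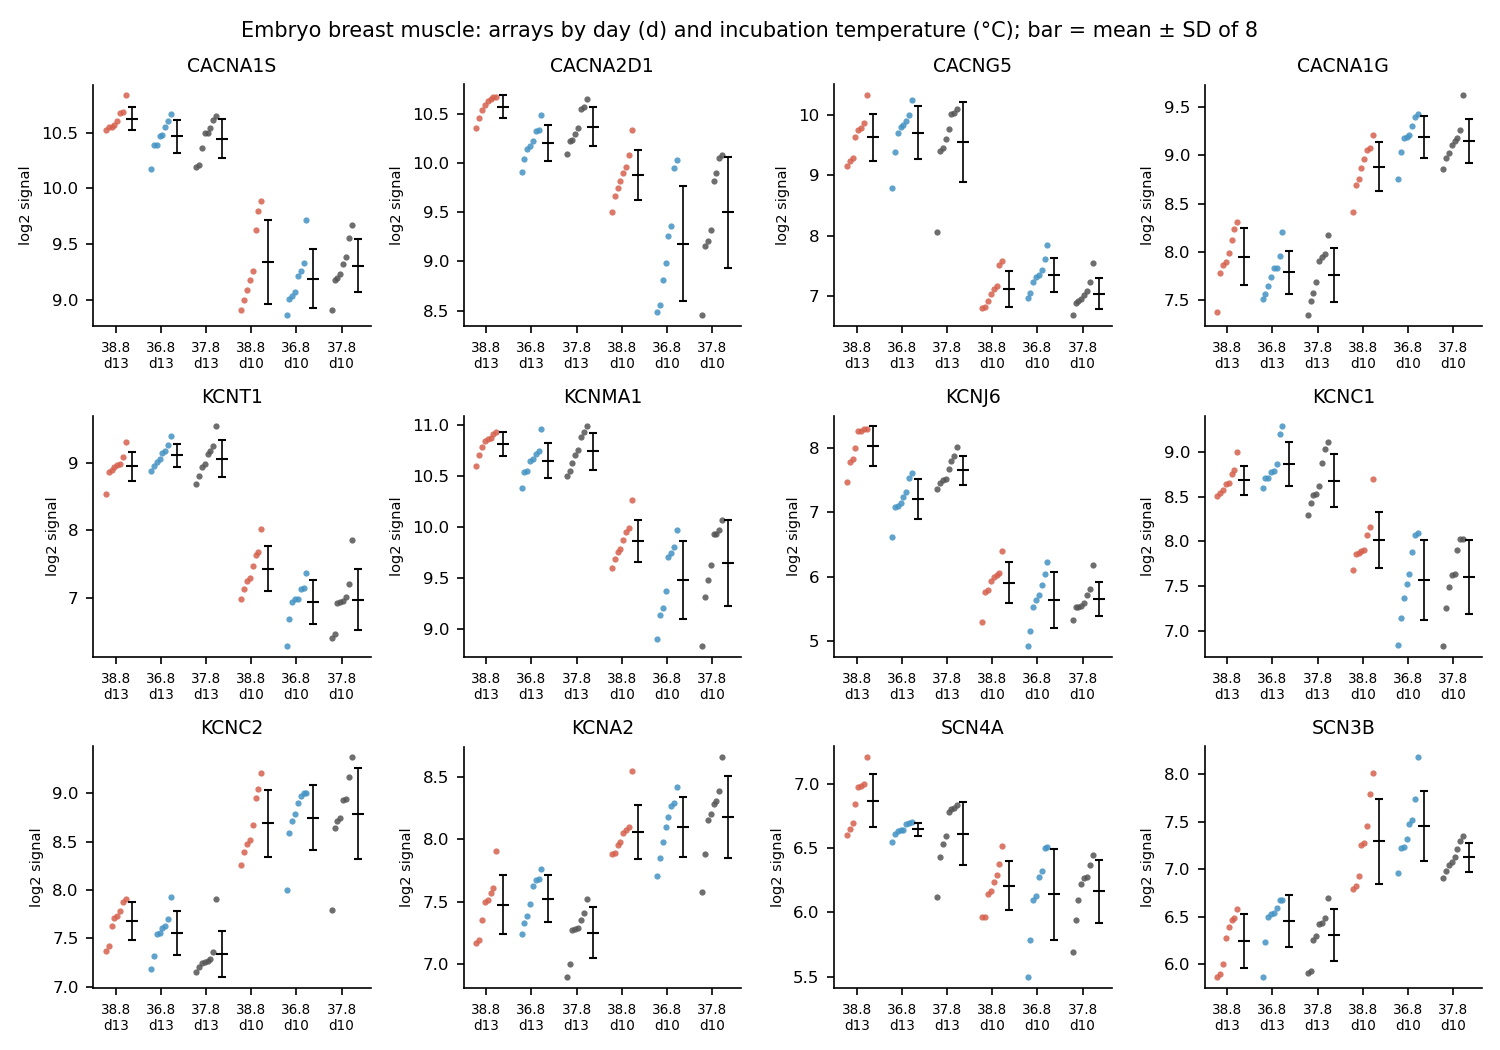
Log2 signal of 12 channel genes on each of the 48 embryo arrays (y axis), by day (d13, d10) and incubation temperature in °C (x axis). Points are arrays, and bars are the mean ± SD of 8. Day 13 arrays are higher for CACNA1S, CACNG5, KCNT1, KCNMA1 and KCNJ6 and lower for CACNA1G and KCNC2 at each temperature, without overlap except for KCNC2 in controls. The 12 genes were chosen after their values were seen.

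Of the 31 voltage-gated potassium pores, 9 fell and 3 rose, where 17.2% of all probe sets fell and 9.65% rose. KCNC2, which encodes the fast-deactivating Kv3.2, had 7.15, 7.26 and 7.91 in day 13 controls, against 7.80, 8.84 and 9.37 in day 10 controls. A single array on each side, embryo 42 of day 13 and embryo 63 of day 10, made the groups overlap (-1.45 ± 0.16, limma adjusted p = 4.3e-10). KCNC1, which encodes the related Kv3.1, moved oppositely, with 8.30, 8.58 and 9.11 in day 13 controls, against 6.83, 7.63 and 8.03 in day 10 controls, without overlap (1.08 ± 0.16).

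KCNA2, a Kv1 channel of axons, fell by 0.93 ± 0.12, with 6.90 to 7.52 in day 13 controls, against 7.58 to 8.65 in day 10 controls. Its neighbour in the gene table, KCNA3, fell by 0.37, and KCNA4 and KCNA6 of the same family by 0.51 and 0.40. KCNA1, KCNA5 and KCNA10 did not pass (-0.09, -0.33 and -0.02). KCND2, an A-type Kv4 pore, fell by 0.63 ± 0.20, and its second probe set fell by 0.998. KCND3, of the same Kv4 family, did not pass (0.03). KCNQ5, a Kv7 channel of the M-current type that is also known from skeletal muscle, fell by 0.69 ± 0.22, and KCNH5 and KCNS3 by 0.63 and 0.37. KCNF1, which forms no channel by itself, and KCNH6, an erg-type channel, rose by 0.58 ± 0.18 and 0.47 ± 0.10. For KCNF1 the difference was 0.31 with the set terms (limma adjusted p = 0.547). Besides CACNA2D1 and KCNF1, the genes KCNA4, KCNA6, KCND2, KCNE4, KCNH5, KCNJ8, KCNK2, KCNK12, KCNS3, SCN4A and SCN8A missed the threshold with these terms. CACNB2, at -0.29 without them, was -0.58 with them and passed (limma adjusted p = 0.0207). The values with these terms are the differences of the set 1 controls alone, 4 per day. A call lost or gained in this way is therefore not an adjustment for the set. For SCN4A the difference was 0.45 both without and with the terms.

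Among the 2-pore-domain leak channels, KCNK2 (TREK-1, opened by stretch and lipids) rose by 0.72 ± 0.18. KCNK18 passed at 0.80 ± 0.21, but its day 10 controls, at 3.88 to 5.30, lay below the background median and its day 13 controls, at 4.94 to 6.22, around it, so this change is not measured above background. KCNK7, for which no current of its own is known, fell by 0.99 ± 0.20, with widely spread day 10 arrays (7.58 to 9.68), and KCNK12 by 0.30. The other 8 did not pass, KCNK5 (TASK-2) at -0.02. Of the auxiliary subunits, KCNE4, which inhibits some Kv channels, rose by 0.59 ± 0.17 and KCNAB2, a cytoplasmic beta subunit of Kv1 channels, fell by 0.45 ± 0.08, with 9.40 to 10.01 in day 13 controls, against 10.07 to 10.42 in day 10 controls. The related KCNAB1 did not pass (0.20).

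Other genes of the tissue moved over the same days in controls, where 9.65% of all probe sets rose and 17.2% fell. Of 29 measured genes of excitation-contraction coupling and excitability outside the channel families, 12 rose and 4 fell (median 0.20, against -0.04 over all named genes). TRDN, which anchors the release complex, rose by 2.12 and FGF13, a sodium channel partner, by 1.07. FGF14, of the same family as FGF13, fell by 1.08, and FGF12 did not pass (-0.27). Of 7 neuromuscular junction genes 5 rose and 2 fell, and of 13 muscle fibre markers 12 rose and 1 fell, with mean levels per array of 10.51 to 10.96 in day 13 controls, against 9.41 to 9.94 in day 10 controls. Of 7 nerve and neuron markers 0 rose and 4 fell (7.38 to 7.66 in day 13 controls, against 7.51 to 8.02 in day 10 controls). Of 10 cartilage markers 9 fell (6.52 to 7.28 in day 13 controls, against 8.78 to 10.22 in day 10 controls). Of 4 Schwann cell markers 1 rose and 1 fell, and 0 and 1 of 4 smooth muscle markers, 2 and 0 of 7 endothelial, 1 and 0 of 7 epidermis, 2 and 0 of 7 fibroblast, 0 and 3 of 6 erythroid and 2 and 0 of 9 immune markers rose and fell. The mean of the epidermis markers ran from 5.89 to 9.43 in day 13 controls, against 5.58 to 8.64 in day 10 controls. No marker was at 0 on any embryo array, and the part of these cell types in the changes of the channel genes was not tested.

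Day 13 and day 10 embryos were also compared at the other temperatures. Each day had its own treatment interval, and the treated day 13 embryos were at the control temperature until day 10. These differences therefore hold both the developmental change and the effects of separate intervals. They are not a change within embryos kept at that temperature from day 10 to day 13 after the same start. On day 13 against day 10, 24 channel genes rose and 20 fell at 38.8 °C (47.8%, against 22.8% of all probe sets, 8.4% up and 14.4% down), and 26 rose and 15 fell at 36.8 °C (44.6%, against 26.4%, 14.4% up and 12.1% down). At all 3 temperatures 31 genes passed in the same direction, 19 up and 12 down (33.7%, against 14.3% of all probe sets and 19.1% of named genes). None passed in opposite directions, and 37 passed at none (40.2%, against 61.3% of all probe sets and 52.7% of named genes). The 36.8 °C arrays of both days lie in set 2, so their difference is within 1 set without any term. The 38.8 °C arrays all lie in set 1. With 1 set term for each day and set 1 as the reference, the 38.8 °C estimates stay as they are. Those at 36.8 °C take up the set differences of the controls on both days, which move these arrays to the level of set 1. In that form 9 genes rose and 2 fell at 36.8 °C (11 in all, against 4.67% of all probe sets). These 11 were CACNG5, KCNT1, CACNG4, KCNC1, CACNA1S, KCNJ6, KCNJ5, KCNH6 and KCNJ3, which rose, and KCNC2 and CACNA1G, which fell. With the same terms 14 rose and 13 fell in controls, estimated from set 1 alone (13.5% of all probe sets passed), and 25 and 21 at 38.8 °C (24.2%).

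The day difference at each changed temperature was compared with that in controls as an interaction. The treatment intervals of the embryonic days differ, so this compares the temperature effects of separate intervals. It cannot tell whether temperature altered the developmental change. No channel gene passed at 38.8 °C or at 36.8 °C (limma, 0.0% of all probe sets in both), and 9 and 2 genes had an unadjusted p under 0.05 (3.88% and 2.95% of all probe sets). The smallest p was that of KCNAB2, which changed by -0.03 at 38.8 °C, against -0.45 in controls (difference 0.42 ± 0.11, unadjusted p = 0.000486, limma adjusted p = 1.0). CACNA1G changed by -0.93 at 38.8 °C, against -1.38 in controls, and KCNT1 by 1.52, against 2.10. KCNA1, a Kv1 channel, changed by -0.44 at 38.8 °C and by -0.42 at 36.8 °C, against -0.09 in controls.

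On day 10, no channel gene passed for 38.8 °C against 37.8 °C or for 36.8 °C against 37.8 °C (limma, 0.0% of all probe sets in each). An unadjusted p under 0.05 was found for 7 and 2 genes (6.29% and 2.36% of all probe sets). None passed for 38.8 °C against 36.8 °C (0.0338% of all probe sets), and 15 had an unadjusted p under 0.05 (16.3%, against 24.4% of all probe sets and 27.3% of named genes). The smallest p there was that of KCNE2, an auxiliary subunit of KCNQ1 and erg channels, with 6.23, 6.77 and 7.19 at 38.8 °C, against 5.57, 6.05 and 6.40 at 36.8 °C (0.73 ± 0.21, limma adjusted p = 0.094). CACNA2D1 averaged 9.88 ± 0.26 at 38.8 °C and 9.18 ± 0.58 at 36.8 °C (SD, n = 8 each, limma adjusted p = 0.0994), and with the listing set as a term the sign turned (-0.23 ± 0.34). KCNK5 turned in the same way, 0.63 ± 0.21 without the term and -0.20 ± 0.30 with it.

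On day 13, no channel gene passed for 38.8 °C or 36.8 °C against 37.8 °C (limma, 0.00483% of all probe sets in each), although 18 and 13 genes had an unadjusted p under 0.05 (12.3% and 14.2% of all probe sets). The smallest p for 38.8 °C belonged to KCNA1, with 6.15, 6.65 and 6.72 at 38.8 °C, against 6.76, 7.00 and 7.15 at 37.8 °C. The groups did not overlap, and the difference was -0.42 ± 0.08 (95% interval -0.60 to -0.25, limma adjusted p = 0.157, 0.072 to 0.694 over the alternatives). At 36.8 °C KCNA1 read 6.56, 6.76 and 6.94, also below the controls by 0.26 ± 0.08 (limma adjusted p = 0.162). For 36.8 °C the smallest p belonged to CACNB2 (0.28 ± 0.07, limma adjusted p = 0.0972).

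Between the warm and cool embryos of day 13, 5 of 92 channel genes passed (5.43%), beside 5.88% of all probe sets and 7.75% of named genes. Of the 5, 3 were higher and 2 lower at 38.8 °C, where 3.54% of all probe sets were higher and 2.34% lower. KCNJ6 had 7.47, 8.13 and 8.31 at 38.8 °C, against 6.62, 7.20 and 7.62 at 36.8 °C, with 37.8 °C controls between them at a median of 7.60. A single warm array reached into the cool range (0.82 ± 0.14, limma adjusted p = 0.00356). CACNA2D1 had 10.35, 10.61 and 10.67 at 38.8 °C, against 9.91, 10.20 and 10.49 at 36.8 °C, and was higher by 0.36 ± 0.08 (limma adjusted p = 0.0152). KCNQ5 had 8.11, 8.39 and 9.03 at 38.8 °C, against 7.73, 7.99 and 8.32 at 36.8 °C, with overlap, and was higher by 0.48 ± 0.14 (limma adjusted p = 0.0445).

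CACNB2, a calcium channel beta subunit, had 8.34, 8.53 and 8.74 at 38.8 °C, against 8.61, 8.86 and 9.01 at 36.8 °C, and was lower by 0.29 ± 0.07 (limma adjusted p = 0.0236). KCNK15, a 2-pore-domain channel of the TASK group, was lower at 38.8 °C by 0.27 ± 0.08 (limma adjusted p = 0.0468). In both genes the 37.8 °C controls, with medians of 8.52 and 7.90, lay near the warm group. With the listing set as a term, none of the 5 passed: KCNJ6 was then 0.66 ± 0.24, with a limma adjusted p of 0.192 (0.00152 to 0.192 over the alternatives). Each temperature lies in 1 set here, and the set term is estimated from the controls alone. CACNA2D1 was 0.21, KCNQ5 0.25 and KCNK15 -0.12 with that term. CACNB2 was -0.32 ± 0.13 with it (limma adjusted p = 0.224), so its difference did not shrink and its SE was larger. Cartilage markers differed too, with mean levels of 6.64 to 9.58 at 38.8 °C, against 6.55 to 7.09 at 36.8 °C, and 1 of 10 such markers was higher past the threshold. Their part in the result was not tested beyond the following. Without the 3 warm arrays richest in the cartilage collagen COL9A1, KCNJ6 (0.83) and CACNA2D1 (0.42) passed and KCNQ5 (0.28), CACNB2 (-0.26) and KCNK15 (-0.25) did not.

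**Figure D3:**
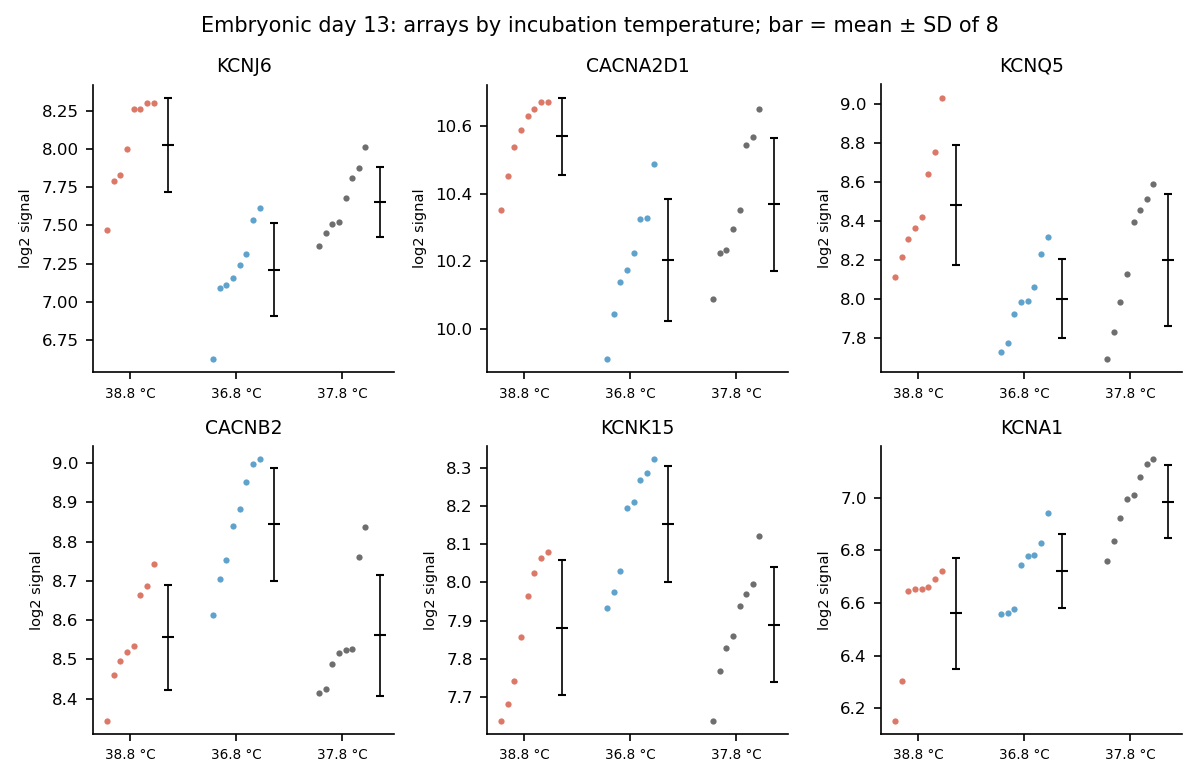
Log2 signal on the 24 arrays of embryonic day 13 (y axis) by incubation temperature (x axis) for the 5 channel genes that passed between 38.8 °C and 36.8 °C and for KCNA1. Points are arrays, and bars are the mean ± SD of 8. KCNJ6 controls lie between the warm and cool embryos, and the KCNA1 medians are below that of the controls at both temperatures.

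Embryo and day 35 values are on different scales, so the percentile of each probe set within its array is given at the 3 ages, as a description of how 1 probe set shifted. Probe sets differ in affinity, and their percentiles do not order the genes by abundance. SCN4A stood at the 21.3rd percentile on day 10, the 28.8th on day 13 and the 94.9th at day 35 (medians of 8 controls), and its day 35 arrays ran from 93.4 to 95.7. CACNA1S stood at 74, 90.8 and 98.4, and CACNA2D1 at 78.9, 89.4 and 95.6. KCNJ12 stood at 33.9, 23.7 and 76.8, and its relative KCNJ2 at 65, 66.5 and 82.9.

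Other genes stood at a lower percentile at day 35 than on day 13. CACNA1H stood at percentiles 73.1, 80.2 and 18 on days 10, 13 and 35, and CACNG4 at 74.7, 92.2 and 50.6. CACNG5 stood at 36.2 on day 10, 80.9 on day 13 and between 20.7 and 33.8 at day 35. KCNJ6 stood at 14.4, 46.2 and 23.4, and KCNJ5 at 52.9 on day 13 and 23.6 at day 35. KCNH7, KCNC4, KCNQ1 and KCNK16 complete the 6 members with the largest gain from day 13 to day 35, and KCNH5, KCNS2 and KCNJ5 the 6 with the largest loss. Over all day 13 arrays KCNH7 and KCNK16 averaged 4.73 and 5.18, below the background median. At day 35 CACNA1H (4.20), KCNS2 (4.08), KCNH5 (4.60), KCNJ5 (4.81) and KCNJ6 (4.92) averaged below it. The sizes of these shifts are therefore not measured above background. KCNH7 ran from 20.6 to 66.9 over the day 35 controls. Its second probe set averaged 4.63 in embryos and 4.38 at day 35, against 5.02 and 5.74 for the one used. Over all 92 members the median shift was 1.8 percentile points, against 0.5 over all named genes, and their 5th and 95th percentiles were -27.0 and 23.9, against -24.8 and 22. Below the 50th percentile of the array stood 68, 62 and 66 of the 92 at the 3 ages.

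**Figure D4:**
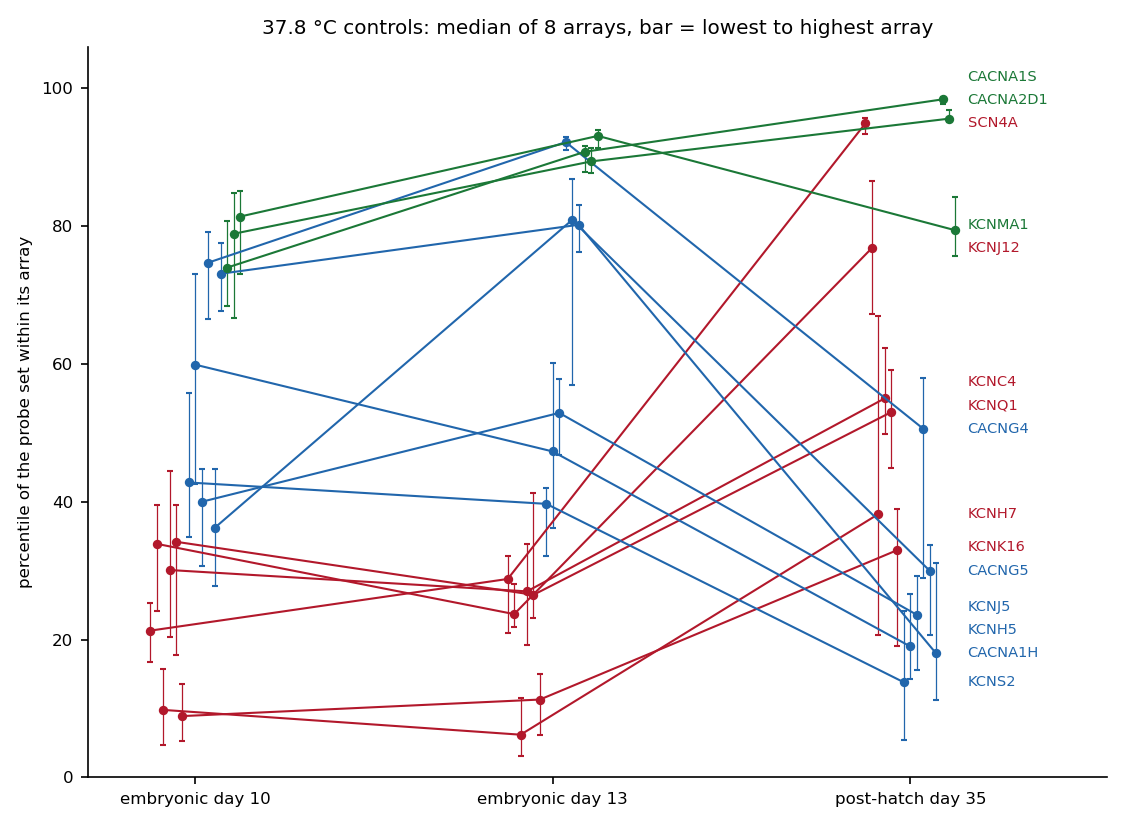
Percentile of a channel gene's probe set within its array (y axis) at the 3 ages (x axis) in 37.8 °C controls. Points are medians of 8 arrays and bars run from the lowest to the highest array. Red marks the 6 members with the largest gain from day 13 to day 35, led by SCN4A, blue the 6 with the largest loss, and green 3 further members, CACNA1S, CACNA2D1 and KCNMA1.

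At day 35 no channel gene passed between a treated group and the controls (limma, 0.0% of all probe sets in each of the 4 comparisons). At an unadjusted p under 0.05 there were 9 genes after 38.8 °C on days 7 to 10, 4 after 36.8 °C on days 7 to 10, 4 after 38.8 °C on days 10 to 13 and 7 after 36.8 °C on days 10 to 13, where 6.4%, 3.09%, 3.14% and 6.37% of all probe sets had one. SCN4A averaged 10.23 ± 0.15 and 10.05 ± 0.31 after early and later 38.8 °C and 10.21 ± 0.21 and 10.17 ± 0.20 after early and later 36.8 °C, against 10.20 ± 0.18 in controls (SD, n = 8 each). CACNA1S averaged 11.49 ± 0.15, 11.46 ± 0.35, 11.52 ± 0.22 and 11.52 ± 0.20 in the same order of treated groups, against 11.51 ± 0.20 in controls. The bird with the lowest SCN4A, number 39 of the later 38.8 °C group, read 9.36. KCNG2, a modifier subunit of Kv2 channels, had 6.79, 7.38 and 7.87 after early 38.8 °C, against 7.21, 7.85 and 8.93 in controls (-0.69 ± 0.23, limma adjusted p = 0.622).

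The warm groups together against the cool groups together at day 35 gave no channel gene that passed (limma, 1.94% of all probe sets), and 10 had an unadjusted p under 0.05 (18.5% of all probe sets). The smallest p was that of KCNK12, a 2-pore-domain channel, which averaged 5.89 ± 0.16 after 38.8 °C and 6.11 ± 0.23 after 36.8 °C (SD, n = 16 each), lower by 0.23 ± 0.08 (limma adjusted p = 0.109), with 14 of 16 warm birds below the cool mean. Of the 92 genes, 70 were lower after 38.8 °C, with a median of -0.09, against -0.004 over all named genes and -0.03 over all probe sets. After quantile normalization 48 were lower and the median was -0.0057, and without dim probe sets it was -0.0042. With the listing set as a term 60 were lower and the median was -0.129, where 0.0% of all probe sets passed. Without the array of lowest correlation 68 were lower and the median was -0.0853. All 9 immune cell markers were lower after 38.8 °C, 1 of them past the threshold, with a median of -0.37. Their mean per array ran from 6.497 to 7.92 after 38.8 °C, against 6.83 to 8.58 after 36.8 °C, none was at 0 on all arrays of a group, and their part was not tested. Later against early 38.8 °C and later against early 36.8 °C also gave none (0.00483% and 0.0% of all probe sets), and 10 and 5 had an unadjusted p under 0.05 (4.9% and 2.01%). KCNQ5 had 7.66, 8.101 and 8.72 after later 38.8 °C, against 8.14, 8.63 and 8.99 after early 38.8 °C (-0.49 ± 0.18, limma adjusted p = 0.884).

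**Figure D5:**
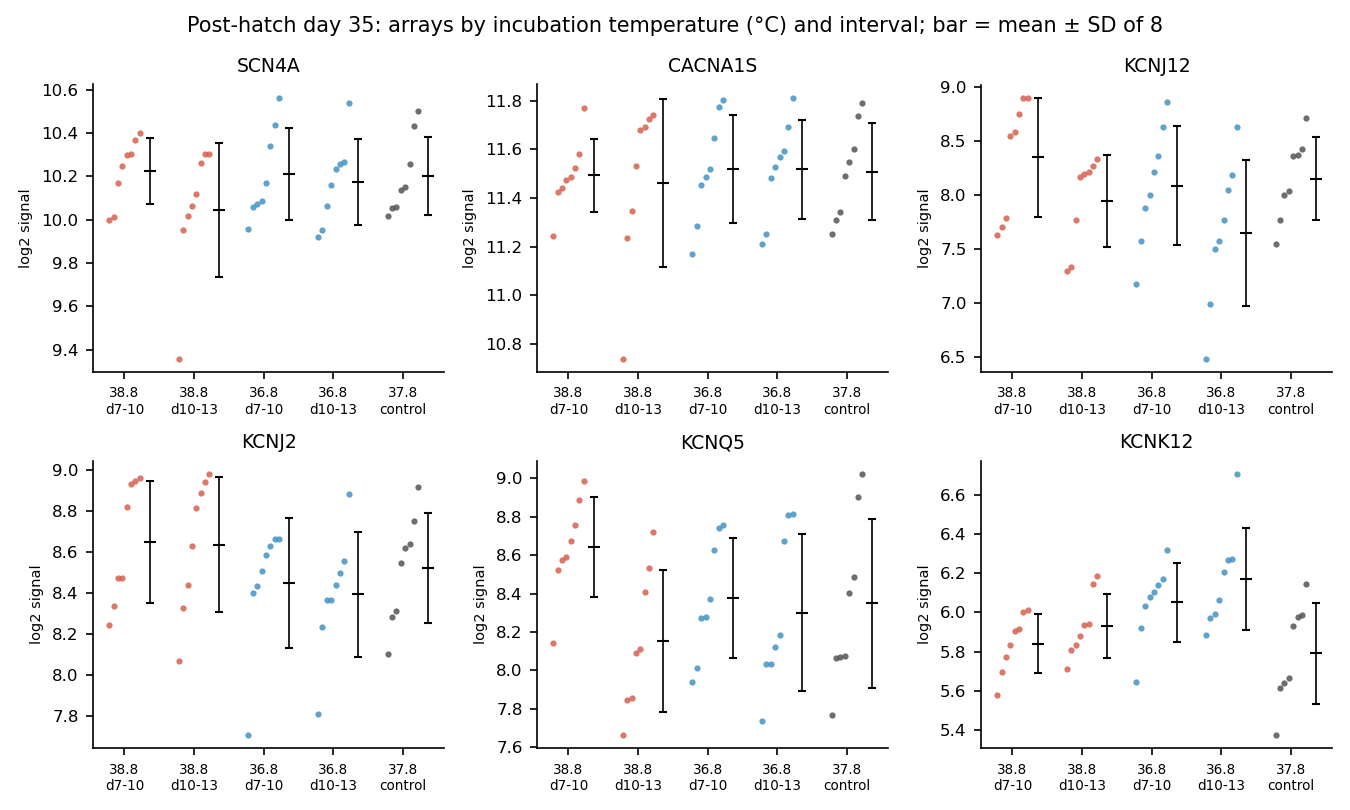
Log2 signal of 6 channel genes on the 40 arrays of post-hatch day 35 (y axis) by incubation temperature in °C and embryonic days of treatment (x axis). Points are arrays, and bars are the mean ± SD of 8. The groups overlap in every panel, the genes were chosen after their values were seen, and 1 bird of the later 38.8 °C group is low for SCN4A.

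Of 29 channel genes chosen by name as a known skeletal muscle set, 16 were measured here, and among day 13 against day 10 controls 7 of them were higher and 2 lower past the threshold, where 9.65% of all probe sets were higher and 17.2% lower. The set was chosen with earlier results of these data known, so these counts are a description only. Of the 6 channel genes with a second probe set, CACNA2D2, KCND2, KCNG4, KCNH7, KCNMA1 and KCNV1, both probe sets gave the same sign of developmental change in controls. At 36.8 °C those of KCNG4 had opposite signs (0.13 and -0.10), and neither passed. Probe sets that the annotation gives to both SCN3A and SCN2A (3 of them) were left out of the members, and none passed for development in controls.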

How the data were processed

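The authors deposited log2 signals, 1 per probe set and array, in a pair of tables that differed in 0 values. GCOS 1.1.1 is named in the submitters' processing notes. How probes were summarised and normalized is not given in the sources used here. Of 20804 rows, 98 are controls and 20706 were tested. Gene names are those of the platform's annotation, brought up to date by Entrez identifier (GRCg7b gene table), and 87 of 92 members matched. The linear models of limma (version 3.58.1, under R 4.3.3) gave 2-sided moderated tests, with Benjamini-Hochberg adjustment over all probe sets and a threshold of 0.05. Development and interactions were fitted on 48 arrays, days 10 and 13 on 24 each and day 35 on 40. Intervals are 95%. The code was tested on simulated data. Arrays give no read depth, and their number limits the precision.

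Members, lists and the naming rule were chosen with earlier results of these data known. The rule names, for development, up to 15 members with the largest rise and fall past the threshold and up to 3 per class, for temperature those past it or else the 10 with the smallest p, and a set fixed by name. Alternatives were quantile normalization, the listing set as a term, a filter on dim probe sets, a trended robust prior, the compared groups alone, means over probe sets, leaving out the array of lowest correlation and, at day 35, the later-interval controls alone. The listing set was entered first as 1 term per day and then, after those counts were seen, as 1 term common to both days. Fits within a set, fits without cartilage-rich arrays and the background comparison were also added after the data were seen. Day 35 controls were used as 1 group whatever interval their label gave.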

Additional observations from a re-analysis of the deposited data

Results flagged for a closer look

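In the groups of 8 arrays of the plotted genes and of the genes named for development or between day 13 temperatures, 18 of 247 held an array whose gap to its neighbour exceeded Dixon's 95% critical value as a share of the group's range. Chance flags about 1 in 20 groups. The choice of genes searched was made after the data were seen.

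In the embryos, CACNG5 was low at 8.07 in day 13 control 91, the array of lowest correlation at that age. Day 13 control 42 was high for KCNC2 (7.91) and KCNE4 (7.54) and low for KCNF1 (5.76). Day 10 control 63 was low for KCNC2 (7.80) and CACNB2 (7.93). Day 10 control 65 was high for KCNAB2 (10.42) and day 10 control 21 low for KCNK18 (3.88). KCNA2 was high at 8.54 in the 38.8 °C embryo 16 of day 10, and KCNC2 was low at 8.00 in the 36.8 °C embryo 57 of day 10.

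At day 35, SCN4A was low at 9.36 in bird 39 and KCNC2 low at 6.13 in bird 43, both of the later 38.8 °C group. After early 38.8 °C, KCNJ6 was low at 3.19 in bird 11, the array of lowest correlation at that age, and KCNT1 was low at 6.43 in bird 66. After early 36.8 °C, KCNA1 was high at 6.46 in 1 bird and KCNJ2 low at 7.71 in another. After later 36.8 °C, KCNA2 was low at 4.89 in 1 bird and KCNK12 high at 6.71 in another.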

How the results depend on the processing

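Of the counts of channel genes under an alternative, 132 stayed within 1.5 times the count reported and 9 did not. Most of these counts belong to comparisons in which no channel gene passed, where 0 against 0 was taken as staying. The tally therefore says little about how stable the calls are. Leaving out dim probe sets, which left 32 members to test for development, gave 22 in controls, 21 at 38.8 °C and 20 at 36.8 °C (42.2%, 34.3% and 41.1% of probe sets). On day 13 it left 30 and gave 1 for 36.8 °C against 37.8 °C (2.08% of the probe sets kept). The listing set was first entered as 1 term for each day, with set 1 as the reference. For development the control estimate is then that of set 1 alone, so it repeats the fit within set 1. The 36.8 °C estimate then carries the set differences of the controls. This first form gave 11 for development at 36.8 °C, against 41 reported, and 27 in controls, against 39. With 1 term common to both days, chosen after both were seen, these were 41 and 41 (28.8% of all probe sets in both). Over all probe sets the first form called 2791 in controls, against 5552, and 966 at 36.8 °C, against 5470. On day 13 the set term gave 1 for 36.8 °C against 37.8 °C (4.23% of all probe sets). It gave 0 for 38.8 °C against 36.8 °C (0.135%). Quantile normalization gave 2 on day 10 for 38.8 °C against 36.8 °C (1.59% of all probe sets). Leaving out the cartilage-rich arrays gave 2 on day 13 for 38.8 °C against 36.8 °C (1.26%). The sign turned for development in controls of KCNA1 (0.0081 within set 1, the same estimate as with the set term), KCNJ2 (-0.0101 within set 2) and KCNK5 (0.0185 after quantile normalization, 0.3192 within set 2). With the set term it turned for KCNMB2 in development at 36.8 °C (0.0696), CACNA2D1 on day 10 at 36.8 °C against 37.8 °C (0.1457) and 38.8 °C against 36.8 °C (-0.2333), KCNK5 on day 10 (-0.2009) and KCNJ2 at day 35 (-0.162). Their cause was not tested. Of the other values of single genes 1850 kept direction and call, 73 lost the call, 39 of them with the set term, and 5 gained it. No paired analysis was possible because the animal numbers that embryo and day 35 groups share belong to different animals that are not compared in any fit. Signals near the background median limit what the dim genes can show.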
